A study of Mus musculus with 3 samples.

Results

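The integrin, cadherin and claudin genes of undifferentiated mouse embryonic stem cells of the line R1 were described on 3 Affymetrix arrays. The members were all probe sets whose only annotated gene was an integrin alpha subunit (Itga), an integrin beta subunit numbered 1 to 8 (Itgb), a numbered cadherin (Cdh) or a numbered claudin (Cldn), with Cldn6 left out. This gave 122 of the 45101 probe sets, for 64 of the 18193 genes that have a probe set of their own: 16 integrin alpha, 8 integrin beta, 21 cadherin and 19 claudin genes. One array each was made from untreated cells, from cells given the growth factor BMP4 at 20 ng/ml for 4 h, and from cells given noggin, an antagonist that binds BMPs, at 100 ng/ml for 4 h. No time was given for the untreated cells in the labels used here, and all 3 groups are the same line with no genetic change named. With 1 array per group there is no replicate, so no difference has an error or a test, and each is given by its size on these arrays.

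Integrins are receptors made of 1 alpha and 1 beta subunit that bind matrix proteins such as laminin and fibronectin and join them, through talin and kindlin, to the actin cytoskeleton. Classical cadherins bind the same cadherin on the next cell through calcium-dependent extracellular domains, and their cytoplasmic tails bind catenins. Claudins span the membrane and form the strands of tight junctions, which set what passes between epithelial cells. In embryonic stem cells E-cadherin, the product of Cdh1, holds colonies together, and the integrin of Itga6 and Itgb1 binds laminin.

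Values are log2 RMA expression values, so a difference of 1 is a 2-fold difference and a difference of 0.26 is 1.2-fold, the limit used for counts. Where a gene had several probe sets, the one of highest mean stands for it, and a gene counts as above the floor if the largest of its 3 values is over 3.44, the median of the table. Probe sets differ in how strongly they bind, so a value is compared between arrays for one probe set and not between genes. The labels fitted the cells and the treatments: all 10 markers of undifferentiated embryonic stem cells, among them Pou5f1, Sox2 and Nanog, were above the floor on every array, and Id1, Id2 and Id3, direct targets of BMP signalling, were higher by 2.76 to 4.10 with BMP4 and had differences of -0.49 to -0.19 with noggin. Among markers of other cells, 6 of 9 fibroblast, 5 of 7 primitive endoderm, 3 of 4 blood, 1 of 5 trophoblast and 2 of 5 neural genes were above the floor on at least 1 array. Their summed linear levels on the log2 scale ran from 7.07 to 7.23 for fibroblast genes, 6.67 to 6.99 for endoderm genes and 6.88 to 6.93 for blood genes. For trophoblast genes they were 5.44 to 5.52, for neural genes 7.65 to 7.70 and for the stem cell genes 14.58 to 14.62. The sums are over different genes and lists of unlike length, so they do not measure the share of a cell type. The highest untreated value in the neural list was that of Tubb3, at 7.36, and in the blood list that of Cd68, at 6.34. The differences of several probe sets of a gene were compared within 5139 genes. Their SD within genes was 0.13 with BMP4, 0.11 with noggin and 0.16 between the treated arrays. This SD measures disagreement among probe sets on the same arrays and leaves out variation between arrays or cultures. The 24 poly-A spike probe sets, for RNA added before labelling, had median differences of -0.63 with BMP4 and -0.18 with noggin. All 24 were lower with BMP4, and 23 were lower and 1 higher with noggin. The 18 hybridisation spike probe sets had median differences of 0.01 with BMP4 and -0.006 with noggin. What the poly-A spike differences reflect was not tested. In whole-culture RNA, fewer cells that express a gene and less of its RNA per cell cannot be told apart.

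Of the 64 genes, 23 were above the floor, 35.9% against 63.7% of all genes. These were 9 of 16 integrin alpha, 3 of 8 integrin beta, 5 of 21 cadherin and 6 of 19 claudin genes, and all 23 were above it on each of the 3 arrays. The other 41 lay between 1.32 and 3.34. Nearest above the floor was Itga7, at 3.69 to 3.75, and nearest below it was Cldn14, at 3.13 to 3.34.

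**Figure D1:**
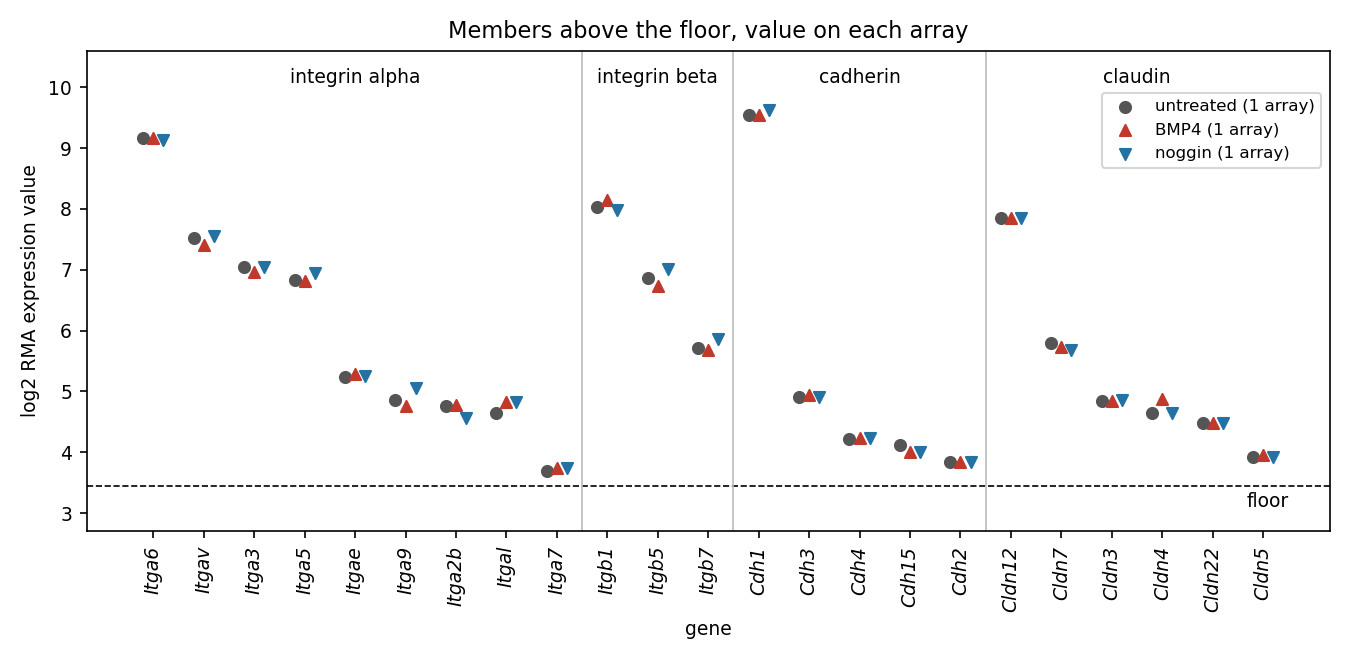
Log2 RMA expression value (vertical axis) of the 23 genes above the floor, by family; each symbol is 1 array (circle untreated, upward triangle BMP4, downward triangle noggin), and the dashed line is the floor of 3.44. The 3 symbols of a gene lie close together: the widest spread is that of Itga9, from 4.75 to 5.05.

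None of the 23 genes above the floor differed by 1.2-fold from the untreated array after 4 h of either treatment. With BMP4, 9 of the 23 genes had higher values, 9 lower and 5 the same value to 6 decimals, and their differences ran from -0.13 for Itgav and Itgb5 to 0.23 for Cldn4. With noggin, 11 were higher, 6 lower and 6 equal, from -0.20 for Itga2b to 0.19 for Itga9. The median difference of the 23 genes was 0.00 in both comparisons, as it was for all 11594 genes above the floor.

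The limit was passed upward by 1.59% and downward by 2.25% of all 11594 genes with BMP4, and with noggin the shares were 0.897% and 1.9%. Against such low shares, finding none among 23 genes does not set the families apart from other genes. A 1.5-fold difference was reached by none of the 23, and by 0.276% of all genes with BMP4 and 0.0776% with noggin.

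The BMP4 and noggin arrays were also compared with each other, which sets added BMP4 against an antagonist of BMPs. Here 2 of the 23 genes were at least 1.2-fold lower with BMP4, Itga9 at -0.30 and Itgb5 at -0.27, against 3.26% of all genes. With the probe sets of a gene averaged, neither reached 1.2-fold, and Itga9, with 2 of its 3 probe sets above the floor, differed by -0.0098. None was 1.2-fold higher, against 3.37%, and none reached 1.5-fold, against 0.518%. All 3 comparisons draw on the same 3 arrays and are not independent of each other.

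**Figure D2:**
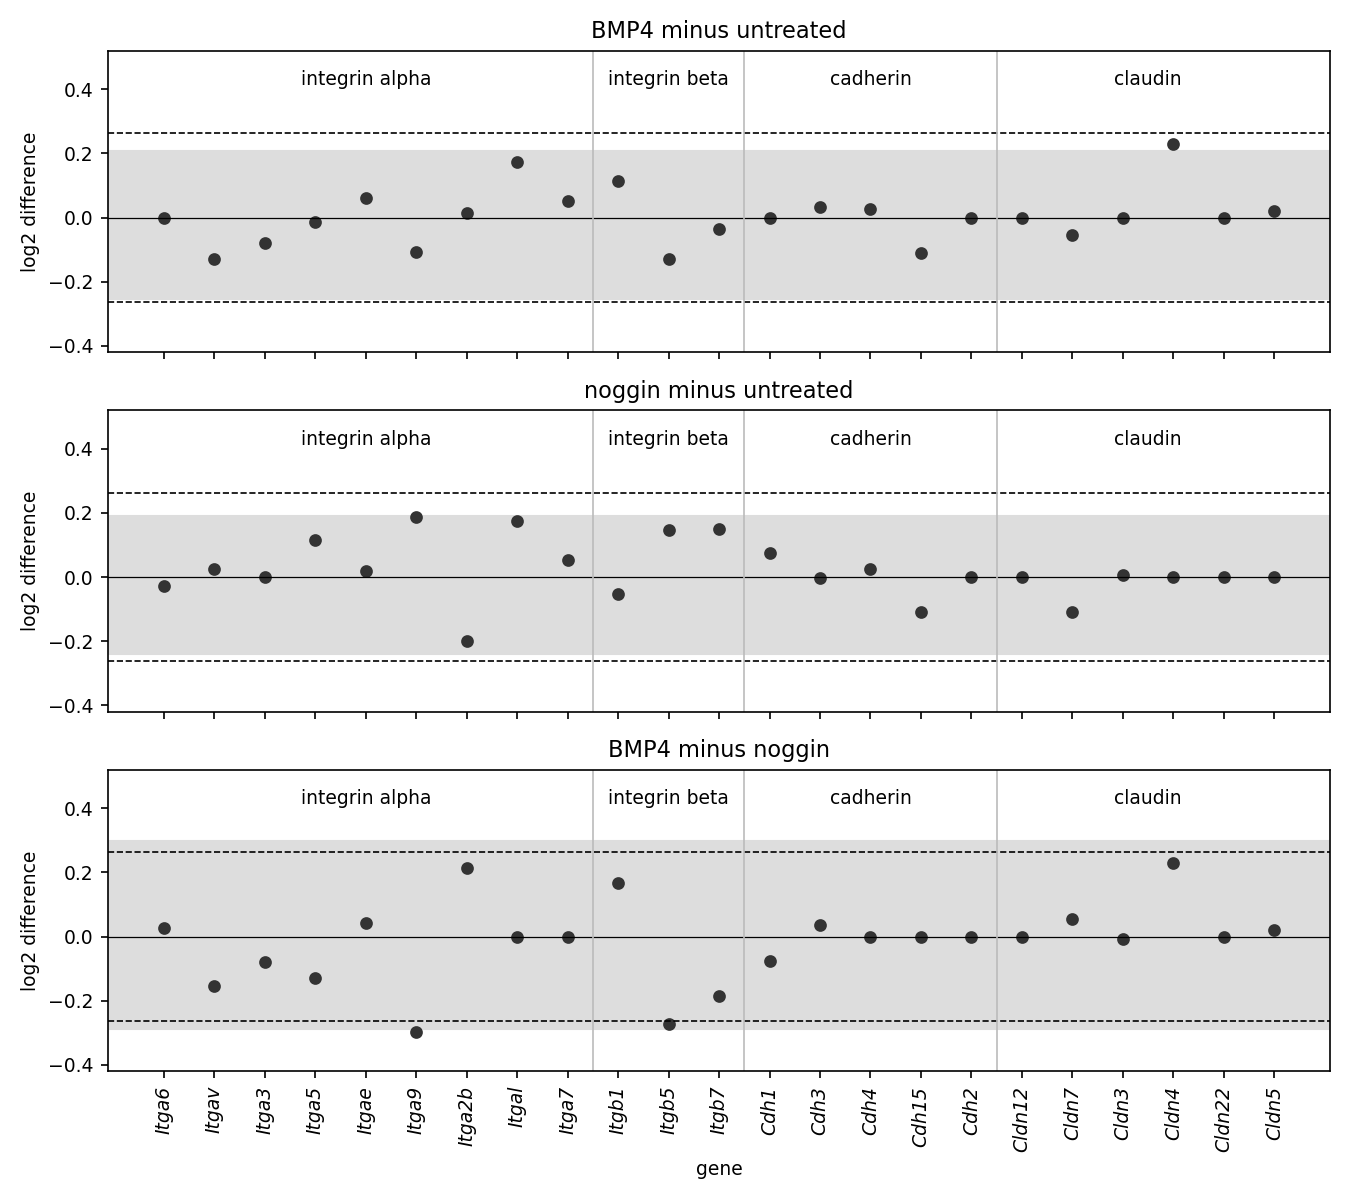
Log2 difference (vertical axis) of each of the 23 genes in the 3 comparisons; each point is 1 gene, the dashed lines mark 1.2-fold and the grey band holds the central 95% of all 11594 genes above the floor. With BMP4 the point for Cldn4, at 0.23, lies above the band, which ends at 0.21; in the lowest panel Itga9 and Itgb5 lie below the lower dashed line.

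The 9 integrin alpha genes above the floor had a median difference of -0.0017 with BMP4, 4 higher and 5 lower, and of 0.03 with noggin, 6 higher, 2 lower and 1 equal. Itga6, the alpha subunit of the main laminin receptors, measured 9.16 on the untreated array, 9.16 with BMP4 and 9.13 with noggin. Its other probe set gave 8.74, 8.74 and 8.75. The values of both probe sets thus differed by no more than 0.03 between any 2 arrays.

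Itga3, another laminin-binding subunit, measured 7.05 untreated, 6.97 with BMP4 and 7.05 with noggin. Its other probe sets above the floor did not vary alike. One was higher with BMP4 by 0.22, at 6.55 against 6.33, and the third was equal with BMP4 and higher with noggin by 0.33, at 5.13 against 4.80. That 0.33 was the only difference past 1.2-fold from the untreated array among the 39 member probe sets above the floor. Of all 22816 probe sets over the floor, 1.17% passed this limit upward and 3.03% downward with noggin. With BMP4 these shares were 3.36% and 2.23%. So low a count does not set the member probe sets apart from the others.

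Itga5 encodes the alpha subunit of the classical fibronectin receptor, and its values were 6.82 untreated, 6.81 with BMP4 and 6.94 with noggin. The second Itga5 probe set above the floor read 4.80 on all 3 arrays. Itgav, whose product binds vitronectin and other proteins with an RGD motif together with several beta subunits, measured 7.53 untreated, 7.40 with BMP4 and 7.55 with noggin. The BMP4 array was thus the lowest for Itgav, by 0.13, whereas its second probe set above the floor was higher by 0.02.

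Itga9, a subunit of the receptor for tenascin-C and osteopontin, measured 4.86 untreated, 4.75 with BMP4 and 5.05 with noggin. The noggin array was highest and the BMP4 array lowest, and the difference between them, -0.30, was the largest of the 23 genes. A second Itga9 probe set measured 4.70 untreated, 4.70 with BMP4 and 4.61 with noggin, so that BMP4 minus noggin was 0.09, with the opposite sign.

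Itgae, the alpha subunit of the E-cadherin receptor of intraepithelial lymphocytes, measured 5.23 untreated, 5.29 with BMP4 and 5.25 with noggin. In the RefSeq annotation Itgae overlaps Haspin, the gene of a mitotic histone kinase. The Haspin probe set measured 7.57 untreated, 7.12 with BMP4 and 7.54 with noggin, and its difference of -0.44 with BMP4 was not seen on Itgae. Whether the Itgae probe sets bind RNA of both genes was not tested.

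The remaining 3 alpha genes above the floor were Itga2b, the platelet fibrinogen receptor subunit, at 4.76 untreated, Itgal, the leukocyte subunit of LFA-1, at 4.65, and Itga7, a laminin receptor subunit of muscle, at 3.69. Itga7 overlaps Mettl7b, whose probe set lay below the floor. Itgal was higher by 0.17 on both treated arrays, while its second probe set read 3.84 on all 3. Itga2b was lower by 0.20 with noggin and differed by 0.01 with BMP4. Of the blood cell markers, Ptprc, the defining surface protein of leukocytes, lay below the floor on all 3 arrays, at 1.79 untreated, whereas Cd68 measured 6.25 to 6.34 and Cd3e 4.53 to 4.62. Their part in the values of Itgal and Itga2b was not tested. The 7 alpha genes below the floor, Itga1, Itga2, Itga4, Itga8, Itga10, Itgam and Itgax, measured 1.99 to 3.02.

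Only 3 of the 8 beta genes were above the floor. Itgb1, the beta subunit of most matrix receptors, measured 8.03 untreated, 8.15 with BMP4 and 7.98 with noggin. Its second probe set above the floor gave 7.64, 7.77 and 7.69. Both were highest on the BMP4 array, by 0.11 and 0.12 over the untreated array. The remaining 4 Itgb1 probe sets were below the floor.

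Itgb5, which pairs with Itgav in a vitronectin receptor, measured 6.87 untreated, 6.74 with BMP4 and 7.01 with noggin. It had 4 probe sets above the floor, and 3 of them were lower with BMP4, by 0.12 to 0.23, while the fourth was equal at 5.93. With noggin 2 were higher and 2 lower, from -0.07 to 0.15. The order BMP4, untreated, noggin in the first probe set was therefore repeated in 1 of the other 3 probe sets, which gave 6.34, 6.46 and 6.50.

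Itgb7, the beta subunit of lymphocyte homing receptors, measured 5.71 untreated, 5.67 with BMP4 and 5.86 with noggin, from a single probe set. The 5 beta genes below the floor were Itgb2, Itgb3, Itgb4, Itgb6 and Itgb8, at 1.41 to 3.24. Itgb2 is the shared subunit of the leukocyte integrins and Itgb4 that of hemidesmosomes.

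Of 24 alpha-beta pairs known to form receptors, 22 had both genes among those measured, and in 8 of these both genes were above the floor. They were the pairs of Itgb1 with Itga3, Itga5, Itga6, Itga7, Itga9 and Itgav, of Itgb5 with Itgav, and of Itgb7 with Itgae. Itgal and Itga2b were above the floor without the beta gene of their known pair, Itgb2 or Itgb3. The pair of Itgb1 with Itga7 rests on a gene close above the floor, at 3.69 untreated. RNA values do not show that a receptor was assembled.

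**Figure D3:**
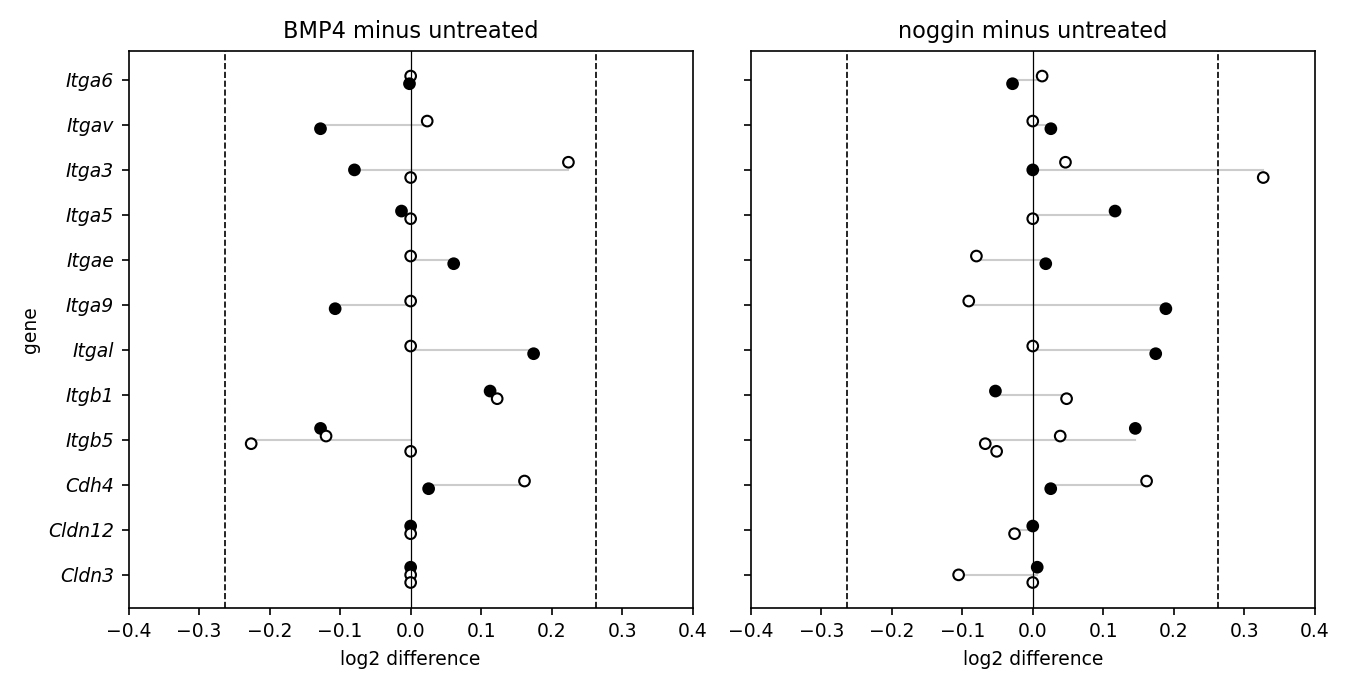
Log2 difference from the untreated array (horizontal axis) for every probe set above the floor in the 12 members with several; filled points represent the gene elsewhere in the text, open points are its other probe sets, and dashed lines mark 1.2-fold. The probe sets of Itga3 span -0.08 to 0.22 with BMP4 and 0.00 to 0.33 with noggin, and those of Itgb5 span -0.23 to 0.00 and -0.07 to 0.15.

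Among the cadherins, Cdh1 measured 9.54 on the untreated array, 9.54 with BMP4 and 9.62 with noggin, from 1 probe set. The BMP4 value was equal to the untreated value to 6 decimals, and the noggin value was higher by 0.08. Cdh3, P-cadherin, measured 4.91 untreated, 4.94 with BMP4 and 4.91 with noggin. In the RefSeq gene order Cdh3 is the neighbour of Cdh1, and both were above the floor.

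Cdh2, N-cadherin, whose transcript is known to replace that of Cdh1 when epithelial cells become mesenchymal, read 3.84 on all 3 arrays, close above the floor. Its second probe set lay below the floor, at 2.80, 2.88 and 2.80. No array therefore combined a lower value of Cdh1 with a higher value of the main Cdh2 probe set.

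Cdh4, R-cadherin, measured 4.22 untreated and 4.24 on both treated arrays, and its second probe set above the floor measured 3.45 untreated and 3.61 on both. Cdh15, the cadherin of muscle precursors, measured 4.12 untreated and 4.01 on both treated arrays. The remaining 16 cadherins were below the floor, with no value over 3.29, including Cdh5 of endothelium, Cdh11 of mesenchyme, and Cdh16 and Cdh17 of kidney and intestine.

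Among the claudins, Cldn12 measured 7.86 on each of the 3 arrays, and its second probe set 6.65, 6.65 and 6.62. Cldn7, a claudin of simple epithelia, measured 5.79 untreated, 5.74 with BMP4 and 5.68 with noggin. Cldn3, a sealing claudin, measured 4.85 untreated, 4.85 with BMP4 and 4.86 with noggin. The other Cldn3 probe sets above the floor were also equal between the untreated and the BMP4 array.

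Cldn4, which in the RefSeq order lies next to Cldn3, measured 4.65 untreated, 4.88 with BMP4 and 4.65 with noggin. The BMP4 array was higher than both others by 0.23, a 1.17-fold difference, and it rests on 1 probe set. This was the largest BMP4 difference of the 23 genes. On the same arrays Cldn3 did not show it.

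Cldn22 read 4.48 on all 3 arrays, and Cldn5, a claudin of endothelium, measured 3.93 untreated, 3.95 with BMP4 and 3.93 with noggin. Values equal on all 3 arrays were found for Cdh2, Cldn12 and Cldn22, 3 of the 23 genes or 13.0%, against 24.7% of all genes above the floor. The median polish used in RMA can return one value for several arrays. The 13 claudins below the floor measured 1.32 to 3.34 and included Cldn1, Cldn2, Cldn8, Cldn10 and Cldn18.

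The genes below the floor were lower on the noggin array more often than not. Of the 83 member probe sets at or below the floor, 52 were lower with noggin, 8 higher and 23 equal, and 11 were at least 1.2-fold lower. Their median difference was -0.09. The largest of these differences were those of Cdh26, at 1.95 against 2.52, Cldn23, at 1.32 against 1.86, and Cdh9, at 2.35 against 2.87. All probe sets at or below the floor did the same: 59.1% were lower with noggin and 19.1% by at least 1.2-fold, against 62.7% and 13.3% of the member probe sets. The low end of the noggin array as a whole lay lower, with a 5th percentile of 1.60 against 1.82 on the untreated and BMP4 arrays. Above the floor, 12 of the 39 member probe sets were lower with noggin and 17 higher, 30.8% and 43.6%. Of all 22816 probe sets above the floor, 37.8% were lower and 25.3% higher.

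**Figure D4:**
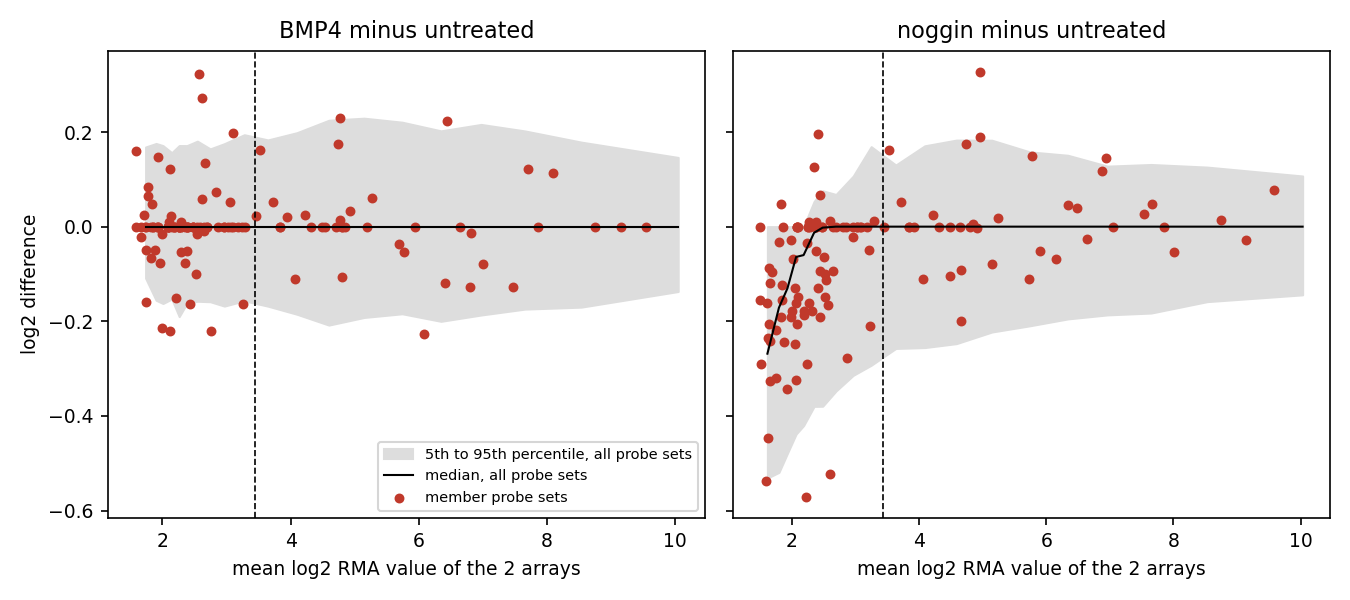
Log2 difference from the untreated array (vertical axis) against the mean log2 RMA value of the 2 arrays compared (horizontal axis); red points are the 122 member probe sets, the black line is the median and the grey band the 5th to 95th percentile of all probe sets in 20 bins of level, and the dashed line is the floor. With noggin the median of the lowest bin is -0.27, and the member probe sets at low level lie below 0 with it.

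The genes that work with these families were described from lists of partners. Of 16 measured catenins and other cadherin partners, 13 were above the floor, and none differed by 1.2-fold in any comparison by the probe set that stands for it. Ctnnb1, beta-catenin, which links cadherins to alpha-catenin and also acts in Wnt signalling, measured 11.74 untreated, 11.74 with BMP4 and 11.76 with noggin. Its other probe sets were higher with BMP4 by 0.18 and 0.31, the latter past 1.2-fold, at 9.58 against 9.27. With BMP4 this limit was passed upward by 3.36% and downward by 2.23% of all 22816 probe sets over the floor. Further probe sets of other genes in the list also passed it with BMP4. For Arvcf, a relative of p120-catenin, they were higher by 0.55 and 0.30, and for Nectin1, an adhesion protein of adherens junctions, one was lower, at 3.20 against 3.65. Ctnna1, alpha-catenin, measured 10.80, 10.75 and 10.86 in the same order, and Ctnnd1, p120-catenin, which keeps cadherins at the membrane, 7.22, 7.28 and 7.28.

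All 16 measured tight junction partners were above the floor. Tjp1, the scaffold ZO-1, measured 8.40 untreated, 8.35 with BMP4 and 8.40 with noggin. Ocln, occludin, measured 5.91, 5.82 and 5.66, lowest with noggin by 0.25, while its other probe set read 4.76 on all 3 arrays. Marveld2, tricellulin, was the 1 gene of the list past 1.2-fold from the untreated array by the probe set that stands for it, at 4.21 with noggin against 3.93. Other probe sets above the floor passed it upward with BMP4, which 3.36% of all 22816 such probe sets did. For Pard3, a polarity scaffold, these differed by 0.52 and 0.30, and all 4 Pard3 probe sets had higher values with BMP4. One probe set of Jam2, a junctional adhesion molecule, was higher by 0.41, and one of Prkci, an atypical protein kinase C, by 0.33. With noggin a further probe set of Cgnl1, paracingulin, was higher by 0.28. The limit was passed upward with noggin by 1.17% of all probe sets over the floor. Patj, another polarity scaffold, differed by -0.44 between BMP4 and noggin, at 3.28, below the floor, against 3.73. With probe sets averaged it differed by -0.0905, and the other Patj probe sets in that average lay below the floor.

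Of the 18 integrin adhesion partners above the floor, 13 had lower and 1 a higher value with BMP4, and the median difference was -0.03. With noggin, 6 were higher and 7 lower. The 13 include Tln1, at -2.97e-05. Other probe sets above the floor went both ways with BMP4. A further probe set of Fermt2 differed by 0.15 and of Actn1 by 0.12, and further probe sets of Cd151 and Lims1 by -0.10 and -0.07. Of all 11594 genes above the floor, 4129 had lower and 2871 higher values with BMP4, and 4191 lower and 3109 higher values with noggin. Pxn, paxillin, a focal adhesion adaptor, measured 8.25 untreated, 7.86 with BMP4 and 8.17 with noggin, and Tln2, the second talin, 6.33, 6.03 and 6.56. They were the 2 genes of the 18 at least 1.2-fold lower with BMP4, against 2.25% of all genes. With probe sets averaged neither was, at -0.13 for Pxn and -0.0801 for Tln2. The other Tln2 probe sets in that average lay below the floor, at 2.80 and 3.21 untreated. Zyx, zyxin, measured 5.09, 4.89 and 5.24, and BMP4 minus noggin was -0.35, or -0.18 with probe sets averaged. The other Pxn probe sets above the floor differed by no more than 0.01 with BMP4, and the other Zyx probe set was equal on all arrays. Tln1, which activates integrins, measured 7.05, 7.05 and 7.12, and Ilk, integrin-linked kinase, 7.60 on each array.

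The matrix ligands of integrins mostly had lower values with BMP4 and higher values with noggin. With BMP4, 11 of the 14 genes above the floor had lower and 2 had higher values, and the median difference was -0.09. With noggin, 10 had higher values and 1 a lower one, and the median difference was 0.07. The median over all genes above the floor was 0.00 in both comparisons, and their counts of higher and lower values are those given for the adhesion partners. Lama1, a laminin chain of early embryonic basement membranes, measured 7.78 untreated, 7.61 with BMP4 and 8.05 with noggin. Fn1, fibronectin, measured 9.48, 9.32 and 9.76 in that order, and Lama3 6.15, 6.03 and 6.46. These 3 of the 14 were at least 1.2-fold higher with noggin, against 0.897% of all genes, and Lamc1, at 7.89, 7.77 and 8.14, differed by -0.37 between BMP4 and noggin.

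Other probe sets did not repeat all of this. The second Fn1 probe set was lower with noggin by 0.08 and lower with BMP4 by 0.33, and the second Lamc1 probe set read 4.96 on all arrays. A second probe set of Lama5, another laminin chain, was higher with noggin by 0.27. With probe sets averaged, noggin minus untreated was 0.0977 for Fn1 and 0.15 for Lama3, and BMP4 minus noggin was -0.19 for Lamc1. The other Lama3 probe set in its average lay below the floor, at 2.35 untreated, and Lama1 has 1 probe set. Both comparisons share the untreated array. Among markers of fibroblasts, which also make matrix, 3 of 6 above the floor were lower with BMP4 and 1 higher. S100a4, at -0.55, and Postn, at -0.32, passed 1.2-fold, against 2.25% of all genes. Thy1, the higher one, differed by 0.02. With noggin 1 was lower, S100a4 at -0.31, and 2 were higher, Postn at 0.22 and Thy1 at 0.18. Postn lay below the floor untreated, at 3.32. The median of BMP4 minus noggin was -0.162 for these markers and -0.165 for the matrix ligands. Primitive endoderm cells also make laminins, and the summed level of their markers was 6.99 with BMP4 against 6.67 untreated and 6.69 with noggin. Of these markers, Sox7 was higher with BMP4 by 0.99, Gata6 by 0.52 and Sox17 by 0.08. Dab2 and Pdgfra, and Gata4 and Foxa2 below the floor, were equal with BMP4 by the probe set that stands for each. The part of such cells in the matrix values was not tested.

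**Figure D5:**
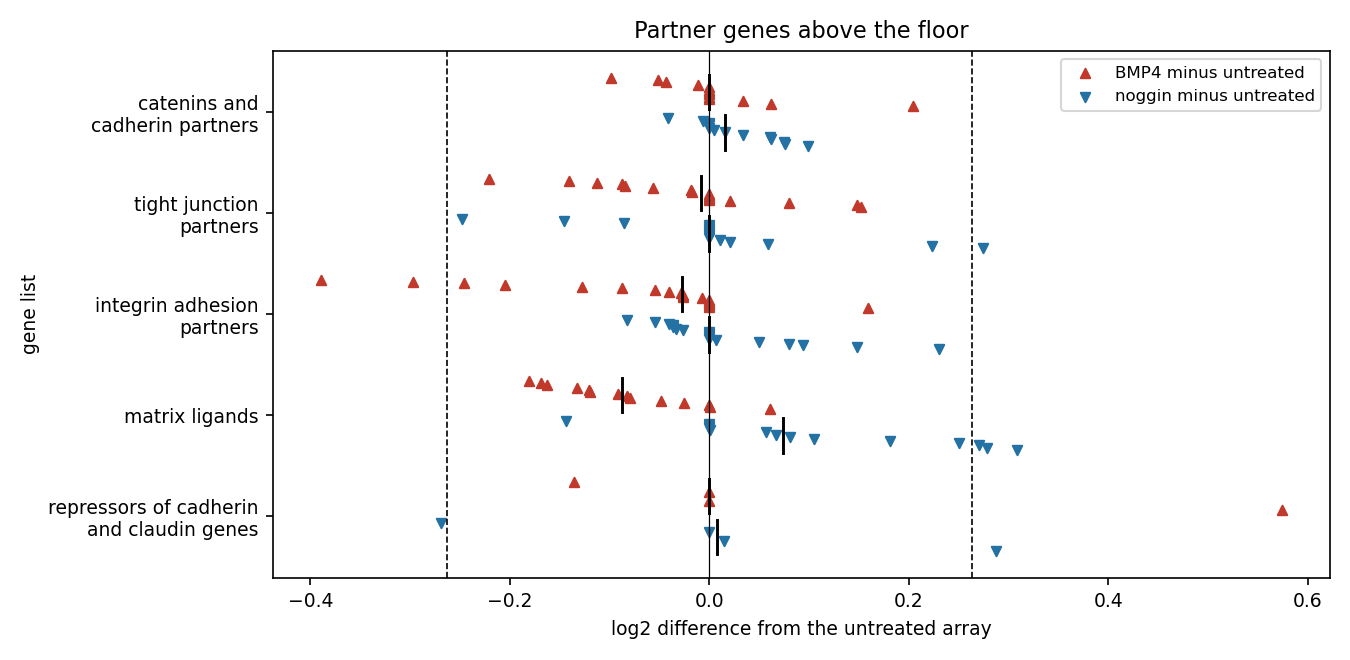
Log2 difference from the untreated array (horizontal axis) for the partner genes above the floor in 5 lists; red upward triangles are BMP4, blue downward triangles noggin, black bars the list medians and dashed lines 1.2-fold. The matrix ligands have medians of -0.09 with BMP4 and 0.07 with noggin, and Snai1, at 0.57, is the point farthest right.

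Of 4 repressors of cadherin and claudin genes above the floor, Snai1 (Snail), which binds E-boxes, measured 3.72 untreated, 4.30 with BMP4 and 4.01 with noggin. Zeb1 measured 7.07, 7.07 and 7.08, and Twist1 read 4.01 on all arrays. Snai2 measured 3.84, 3.71 and 3.57, while its second probe set read 2.11 on each array. Snai1 was thus higher on both treated arrays, by 0.57 and 0.29. It rests on 1 probe set, whose untreated value lay close above the floor of 3.44. The 1.2-fold limit was passed upward by 1.59% of all 11594 genes with BMP4 and by 0.897% with noggin. Cdh1 was equal with BMP4 and 0.08 higher with noggin. An effect of Snai1 on Cdh1 was not tested.

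The promoters were searched for the E-box CACCTG and its reverse complement CAGGTG, which Snail-type factors bind. Promoter sequences from RefSeq (GRCm38.p6) were matched to 15 of the 23 genes above the floor, with 19 start sites. No sequence was matched for Cdh1, Cdh2, Cdh3, Cdh4, Itga6, Itga7, Itgae or Itgal, so whether these hold the motif was not searched. In the 250 bases before the start site, 5 of the 19 windows held the motif on either strand, 26.3%, against 17.2% of the windows of all 32851 promoters. The 5 genes were Cldn4, Cldn7, Itga3, Itga9 and Itgb5. A match is a run of letters and does not show binding.

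The windows of Cldn4, Itga9 and Itgb5 are shown because these genes had the largest differences of the 23, Cldn4 with BMP4 and the others between BMP4 and noggin. They are chr5:134946935-134947184 on the minus strand, chr9:118711442-118711691 on the plus strand and chr16:33829415-33829664 on the plus strand. Each is written 5′ to 3′ and ends at the base before the start site, and capitals mark the E-box.
Cldn4: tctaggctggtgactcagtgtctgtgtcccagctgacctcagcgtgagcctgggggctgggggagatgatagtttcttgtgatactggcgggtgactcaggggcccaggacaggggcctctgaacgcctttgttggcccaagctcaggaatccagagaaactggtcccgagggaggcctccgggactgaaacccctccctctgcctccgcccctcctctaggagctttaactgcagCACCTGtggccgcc
Itga9: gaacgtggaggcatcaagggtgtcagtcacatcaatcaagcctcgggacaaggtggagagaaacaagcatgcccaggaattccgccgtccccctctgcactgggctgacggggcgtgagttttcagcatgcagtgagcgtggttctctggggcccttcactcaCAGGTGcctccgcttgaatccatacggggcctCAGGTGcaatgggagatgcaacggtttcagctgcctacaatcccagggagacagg
Itgb5: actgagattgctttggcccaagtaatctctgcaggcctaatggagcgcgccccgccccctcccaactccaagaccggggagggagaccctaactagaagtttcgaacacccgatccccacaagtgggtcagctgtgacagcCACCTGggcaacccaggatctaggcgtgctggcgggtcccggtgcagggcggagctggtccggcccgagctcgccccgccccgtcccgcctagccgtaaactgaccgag

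In Cldn4 the motif begins 14 bases before the start site, in Itga9 87 and 55 bases before it, and in Itgb5 109 bases before it. Of the 5 genes with the motif, Cldn4 was higher with BMP4 by 0.23. The others were lower, with differences of -0.05 for Cldn7, -0.08 for Itga3, -0.11 for Itga9 and -0.13 for Itgb5. None of these was larger in size than the SD within genes of 0.13 with BMP4. Counting all probe sets above the floor, Itga3 had 1 higher and 1 lower, Itga9 had 1 lower and Itgb5 had 3 lower, and the rest were equal. Of all 23 genes, 9 were higher and 9 lower with BMP4. A link between the motif and these values was not tested. GGCGCC, a GC-rich element bound by SMAD proteins of the BMP pathway, was in 1 of the 19 windows, 5.26%, against 9.59% of all windows. That window was of Itgb1, which was higher with BMP4 by 0.11. A link between the element and this value was not tested.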

How the data were processed

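The deposited values are log2 RMA values for each probe set of 3 arrays, made with RMA per the submitters' processing notes; neither its version nor its settings are given in the sources used here. RMA corrects background, equalises the distributions of the arrays and summarises each probe set by median polish. A general shift in RNA content therefore cannot be seen from the gene values. The differences of the added poly-A spikes are given with the results. Per the labels' protocols, total RNA was extracted with a Qiagen kit and labelled with biotin. The number of arrays, 1 per group, limits the precision.

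Values were used as deposited. Gene names are those of the platform annotation, without control probe sets; the identifiers of all 64 member genes matched RefSeq (GRCm38.p6), with 0 changed symbols. The representative probe set, the floor and the size limit are given with the results. The computation was tested on simulated data. Alternatives were other floors, probe set rules, scalings and size limits. Genes named are members above the floor among the 5 highest untreated values of each family, members past 1.2-fold, partner genes past 1.2-fold and 7 set partners. Itga2b, Itgal, Itga7, Cldn5, Haspin, Zeb1, Twist1, Arvcf, Nectin1, Pard3, Jam2, Prkci, Cgnl1, Lama5, Fermt2, Actn1, Cd151, Lims1, single marker genes and genes below the floor are further mentions chosen after their values were seen. Members and lists were chosen with earlier results of these data known. Python 3.11.15, pandas 2.3.3 and statsmodels 0.14.6 were used.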

Additional observations from a re-analysis of the deposited data

How the results depend on the processing

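The number of member genes above the floor was 23, and 64 with no floor, 8 with a floor at the 75th percentile of 6.04, and 21 to 23 under the other probe set and floor rules. No member was 1.2-fold different with BMP4 against untreated under any of these rules or scalings; at 1.1-fold 2 were, against 14.4% of all genes. With noggin the count was 7 with no floor, all below the floor in the main analysis and lower with noggin, and 5 at 1.1-fold, 21.7% of the 23 against 13.7% of all genes. For BMP4 against noggin the count of 2, Itga9 and Itgb5, became 8 with no floor, 1 with the higher floor, 1 with plain-suffix probe sets, 0 with probe sets averaged, 7 at 1.1-fold, 30.4% against 20.6% of all genes, and 0 at 1.3-fold; averaging gave Itga9 a difference of -0.0098. Centring and loess correction (span 0.3) changed none of these counts. Member medians moved by less than the SD within genes in every setting tried, at most to -0.08. Of 432 gene differences under an alternative, 33 moved by more than that SD, 25 of them with probe sets averaged, and 1 reversed: BMP4 minus noggin of Lama3 was 0.0186 with plain-suffix probe sets, where only a probe set below the floor is left. No paired analysis was possible because each group has 1 array. Signal near background limits the 41 genes below the floor, for which a level was not established.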
